A study of Rattus norvegicus with 20 samples.

Results

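Kinesins and cytoplasmic dynein are the motor proteins that carry cargo along microtubules. Most kinesins walk toward the plus end of the microtubule, which in an axon points to the growth cone, so they carry synaptic vesicle precursors, mitochondria and membrane outward. Dynein walks toward the minus end and, with its cofactor dynactin, carries endosomes and injury or growth factor signals back to the cell body. The genes examined here were all those of a rat expression array whose printed name was that of a kinesin, a kinesin light chain, a cytoplasmic dynein chain or a dynactin subunit. The names matched 53 of the 41012 probes on the array and came to 40 of its 36319 genes, and each gene was read from its brightest probe.

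The RNA came from rats 2 months old that had a stroke. The tracer cholera toxin B with Alexa 488 was placed in the cortex beside the infarct, and the same tracer with Alexa 647 was placed at the same site at day 7 or at day 21, in separate cohorts. At 7 days after the second tracer, about 300 sprouting neurons and about 300 non-sprouting neurons were cut out of each brain by laser capture. Sprouting and non-sprouting neurons of 1 animal were hybridised together on a 2-colour array, with a second array of swapped dyes, so that 5 animals of day 7 and 5 animals of day 21 gave 20 arrays. All animals had the stroke and both tracers, and the strain, sex and stroke method are not given in the sources used here.

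Each value below is a log2 ratio of sprouting over non-sprouting neurons within an animal, the mean of its 2 arrays, unless it is called a level. A level is the log2 intensity of 1 probe in 1 cell type, and it is not set against the level of another probe. Of the 33093 genes bright enough to test, 38 were motor genes. Kif2c and Kif14, both mitotic kinesins, were too dim. Between 40.5% and 94.6% of the probes on an array channel were well above background. The 2 arrays of an animal correlated over all genes with r between 0.33 and 0.73 in 9 animals. In day 21 replicate 4 the correlation was -0.36, and -0.49 over the motor genes, so the direction of that animal's ratios is not settled. Its ratios after averaging lay close to 0, with an SD over all genes of 0.065, and leading results that rest on day 21 are therefore also given without it. The 7 pan-neuronal markers of a fixed list were well above background on at least a share of 0.5 of the arrays in both cell types on both days. Only 4 of 7 glutamatergic markers could be tested. A captured pool is a bulk sample, in which fewer cells of a type and less RNA per cell cannot be told apart.

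Kif1a, Kif5c and Dync1li1 were the 3 motor genes with the smallest p over both days, and they are shown here with the promoter windows from which they are transcribed. Kif1a is the kinesin-3 that carries synaptic vesicle precursors and dense-core vesicles down the axon. Kif5c is one of the neuronal heavy chains of kinesin-1, the general plus-end motor for mitochondria and membrane cargo. Dync1li1 is a light intermediate chain of dynein, the subunit through which cargo adaptors hold the motor. Each window runs from 5′ to 3′ on the gene's strand over 300 bases around the annotated start, as given by RefSeq for the build GRCr8. The Kif1a window is chr9:101094728-101095027 on the minus strand, the Kif5c window is chr3:54441057-54441356 on the plus strand and the Dync1li1 window is chr8:123254720-123255019 on the plus strand. Capitals mark matches on either strand to a GC box (GGGCGG), a cAMP response element (TGACGTCA) or its half-site (TGACG), and an E-box (CACGTG).
Kif1a: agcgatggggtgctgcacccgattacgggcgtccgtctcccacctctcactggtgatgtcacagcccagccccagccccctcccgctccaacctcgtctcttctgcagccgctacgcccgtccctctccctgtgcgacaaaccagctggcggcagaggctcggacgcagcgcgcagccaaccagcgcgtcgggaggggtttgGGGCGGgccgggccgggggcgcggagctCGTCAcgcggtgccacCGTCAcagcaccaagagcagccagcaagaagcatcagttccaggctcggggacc
Kif5c: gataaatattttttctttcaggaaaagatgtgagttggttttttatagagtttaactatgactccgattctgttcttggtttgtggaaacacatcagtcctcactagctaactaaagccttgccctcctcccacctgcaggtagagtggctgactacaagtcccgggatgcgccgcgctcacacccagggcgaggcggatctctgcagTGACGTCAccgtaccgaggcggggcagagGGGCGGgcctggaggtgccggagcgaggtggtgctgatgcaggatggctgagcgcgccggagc
Dync1li1: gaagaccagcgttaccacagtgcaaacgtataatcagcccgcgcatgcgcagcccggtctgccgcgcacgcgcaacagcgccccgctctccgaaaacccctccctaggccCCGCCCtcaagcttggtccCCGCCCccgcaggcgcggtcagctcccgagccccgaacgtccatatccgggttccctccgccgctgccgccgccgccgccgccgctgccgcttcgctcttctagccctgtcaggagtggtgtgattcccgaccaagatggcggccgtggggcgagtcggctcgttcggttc
The Kif5c window held a whole cAMP response element, a letter string found in 1.91% of 27457 promoter windows of the same length, and its palindrome counts as 2 half-sites. The Kif1a window held 2 separate half-sites, a string found in 22% of all windows. The Dync1li1 window held neither. All 3 windows held at least 1 GC box, against 34.9% of all windows. None held an E-box, found in 6.65% of all windows. Of the 40 motor genes 32 had a window, of which 25 held a GC box and 13 a half-site. Their median was 24.5 CpG dinucleotides, against 7 in all windows, and its relation to those counts was not tested. These matches describe letters and were not compared with the arrays.

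At day 7 the motor genes as a group lay around 0, with 3 transport genes above it. Their median ratio was 0.0072, against -0.0054 for all genes, and 20 of 38 lay above 0, where 46.5% of all genes did. At an unadjusted p under 0.05, 3 of 38 were past the mark, against 9.48% of all genes. All 3 were higher in sprouting neurons and none lower, against 4.48% higher and 5% lower among all genes. After Benjamini-Hochberg adjustment over all genes, no motor gene passed 0.05 at day 7 in limma, and 0.00302% of all genes did. The smallest adjusted p of a motor gene was 0.42.

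**Figure D1:**
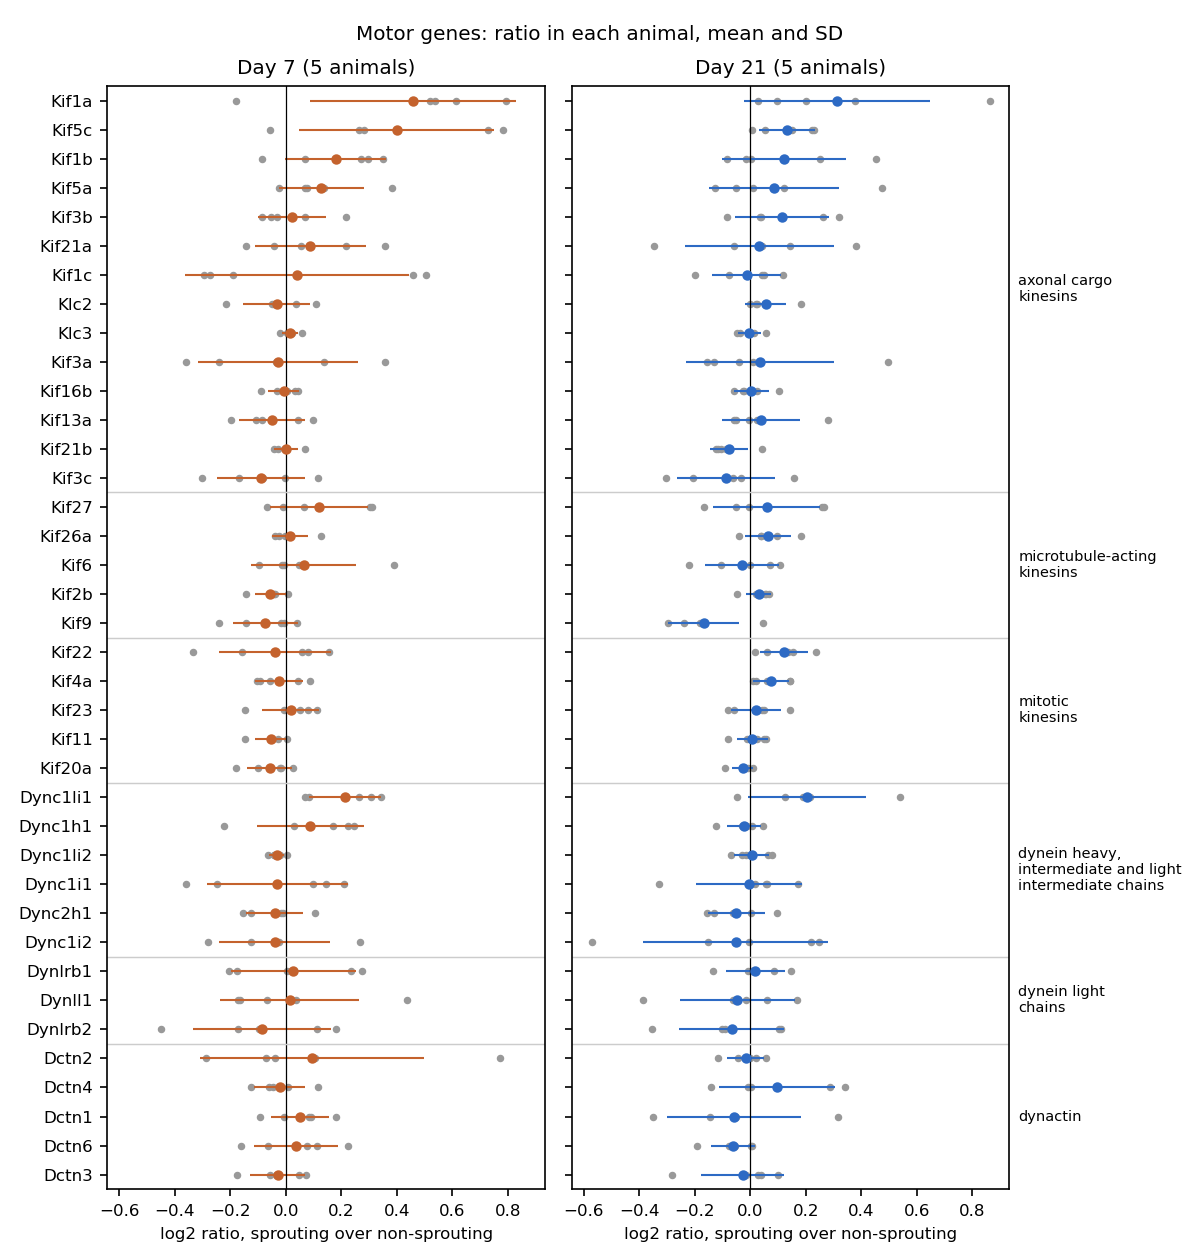
Log2 ratio of sprouting over non-sprouting neurons for the 38 motor genes at day 7 (left) and day 21 (right), in groups by role. Grey points are the 5 animals of each day, coloured points their mean and lines the SD, and most means lie within 0.1 of 0 while Kif1a, Kif5c and Dync1li1 stand to the right at day 7.

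Kif1a had the highest mean of the motor genes at day 7. Its ratios were -0.18, 0.52, 0.54, 0.62 and 0.79 in the 5 animals. The mean was 0.46 ± 0.37 (SD, n = 5), or 1.37-fold, with an unadjusted limma p of 0.0086 and an adjusted p of 0.46. Replicate 1 was below 0 and the other 4 animals well above it. A second Kif1a probe passed the same filter. It gave -0.26, -0.24, -0.57, 0.20 and 0.33 in the same animals, so that replicates 2 and 3 lay on opposite sides of 0 with the 2 probes. The mean of both probes was 0.17 at day 7, with an unadjusted p of 0.15. The reading for Kif1a therefore depended on the probe, and probe sequences were not used here. Of the 9 motor genes with several bright probes, 4 had probes on opposite sides of 0 at day 7 and 4 at day 21.

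Kif5c had the smallest p at day 7. Its ratios were -0.06, 0.26, 0.28, 0.73 and 0.78, a mean of 0.40 ± 0.35 (SD, n = 5), with an unadjusted p of 0.0032 and an adjusted p of 0.42 in limma. Replicates 4 and 5 were the highest. Other kinesin-1 genes were measured too. Kif5a, the heavy chain restricted to neurons, gave 0.07, -0.02, 0.08, 0.14 and 0.38, a mean of 0.13 ± 0.15. Kif5b, the widely expressed heavy chain, was printed on the array under an accession and so was not among the 38. Its ratios were -0.16, 0.06, -0.15, 0.58 and 0.78, again highest in replicates 4 and 5, with a mean of 0.22 ± 0.43 and an unadjusted p of 0.11. The light chains, which couple kinesin-1 to cargo, lay near 0: Klc2 averaged -0.03 ± 0.12 and Klc3 0.02 ± 0.03, and Klc1, printed under an old name, 0.05 ± 0.17 (SD, n = 5 each).

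Oligodendrocyte markers moved with some of these genes at day 7. All 9 markers of a fixed list had a mean ratio above 0, with Mbp, the myelin basic protein, at 0.74 and Sox10, the transcription factor of the lineage, at 0.06. The median of the list was -0.34, 0.21, -0.02, 0.84 and 0.92 in day 7 replicates 1 to 5, so replicate 1 was lowest and replicates 4 and 5 highest, as for the Kif1a probe used, Kif5c and Kif5b. The summed intensity of the 9 markers ran between 34533 and 73841 in sprouting neurons and between 37190 and 70317 in non-sprouting neurons at day 7, and all 9 were well above background on at least a share of 0.5 of the arrays there. Neuronal markers at day 7 were mixed, and none had an adjusted p under 0.05 in limma. Of 7 pan-neuronal markers, 3 were above 0 and 4 below, with a median of -0.02 and a smallest adjusted p of 0.48. The 1 with an unadjusted p under 0.05 was Nefl, a neurofilament, at 0.21 with a p of 0.019. Syt1, the calcium sensor of synaptic vesicles, averaged 0.39 and was above 0 in all 5 animals, with a p of 0.13. Of the 4 glutamatergic markers that could be tested, 1 was above 0 and 3 below at day 7. Their median was -0.07 and their smallest adjusted p 0.75. At day 21 their median was -0.14, again with 3 below 0. Of 6 GABAergic markers, 4 were above 0 and 2 below at day 7, with a smallest adjusted p of 0.43. Gad2, which makes GABA, was at 0.49 with a p of 0.039, and Vip, the neuropeptide of 1 interneuron class, was at -0.93 with 5 of 5 animals below 0 and a p of 0.0049. Whether any of these markers has a part in the ratios of Kif1a, Kif5c or Kif5b was not tested. At day 21 the list median was 0.60, -0.30, -0.30, 0.02 and -0.14, and Kif1a and Kif5c lay above 0 in all 5 animals.

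**Figure D2:**
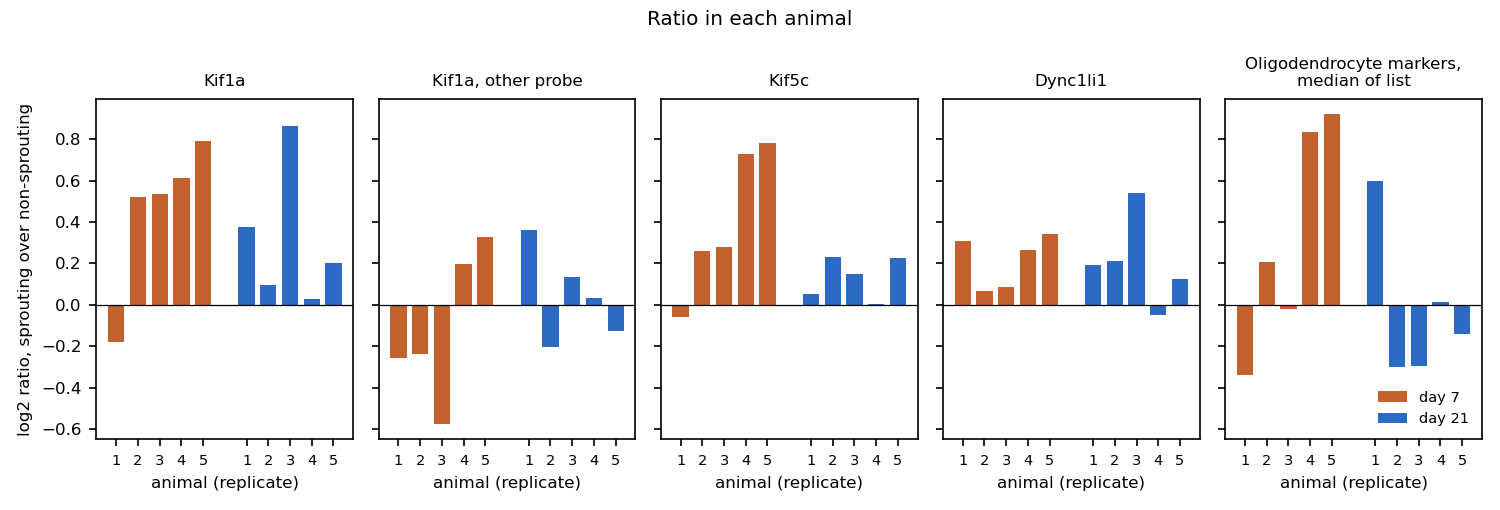
Log2 ratio of sprouting over non-sprouting neurons in each of the 5 day 7 and 5 day 21 animals for the Kif1a probe used, the other Kif1a probe, Kif5c, Dync1li1 and the median of 9 oligodendrocyte markers. Bars start at 0; the 2 Kif1a probes point opposite ways in day 7 replicates 2 and 3, and the marker list is highest in day 7 replicates 4 and 5.

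Dync1li1 was the only motor gene above 0 in all 5 day 7 animals. Its ratios were 0.31, 0.07, 0.08, 0.26 and 0.34, a mean of 0.21 ± 0.13 (SD, n = 5), with an unadjusted p of 0.015 and an adjusted p of 0.48. A ratio of 1 sign in all 5 animals was found in 8.62% of all genes at day 7. The probe was dim: its level was 6.59 ± 0.12 in sprouting neurons and 6.38 ± 0.18 in non-sprouting neurons, well above background on 9 of 10 arrays in each. The mean was 0.71 from the scanner's processed signals, so its size depended on the signal and normalization used. Its paralogue Dync1li2 lay at -0.03 ± 0.03, with a 95% interval of -0.10 to 0.03 in limma. A dimmer second probe of Dync1li2 gave -0.23, -0.15, -0.05, 0.62 and 0.69.

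The other dynein chains showed no shared direction at day 7. Dync1h1, the heavy chain that holds the motor domain, gave 0.22, 0.17, 0.25, -0.22 and 0.03, a mean of 0.09 ± 0.19. Dync1i1 and Dync1i2, the intermediate chains that bind dynactin, averaged -0.03 ± 0.25 and -0.04 ± 0.20. The second Dync1i2 probe averaged higher, with 4 of 5 animals above 0 where the probe used had 1 of 5. Dync2h1, the heavy chain of the ciliary dynein, lay at -0.04 ± 0.10. The light chains Dynll1 and Dynlrb1 averaged 0.01 ± 0.25 and 0.03 ± 0.22, and Dynlrb2 -0.08 ± 0.25. Dynll2, the close relative of Dynll1 printed under an old name, averaged 0.05 ± 0.12 (SD, n = 5 each). In dynactin, Dctn1, the subunit that holds dynein and the microtubule, averaged 0.05 ± 0.10. Dctn2, which joins the shoulder to the filament, averaged 0.10 ± 0.40, with 1 animal at 0.77 and the other 4 between -0.29 and 0.10. Dctn3, Dctn4 and Dctn6 lay between -0.03 and 0.04. None of these chains had an unadjusted p under 0.05.

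Kinesins with other cargo lay within their spread. Kif1b, a kinesin-3 that carries mitochondria and vesicle precursors, averaged 0.18 ± 0.18, with 4 of 5 animals above 0 and an unadjusted p of 0.057. Kif1c, which carries dense-core vesicles, split widely, with replicates 4 and 5 at 0.46 and 0.51 and the other 3 between -0.30 and -0.19. The subunits of the heterotrimeric kinesin-2 lay near 0: Kif3a averaged -0.03 ± 0.29, Kif3b 0.02 ± 0.12 and Kifap3, which links them to cargo, 0.01 ± 0.31 (SD, n = 5 each). Kif3c, the kinesin-2 subunit that is enriched in neurons, lay at -0.09 ± 0.16, the lowest mean of the 38 at day 7. Dynlrb2 and Kif9 came next to it. Kif21a and Kif21b, kinesin-4 motors that restrain microtubule growth, averaged 0.09 ± 0.20 and 0.00 ± 0.04. The remaining kinesins (Kif6, Kif13a, Kif16b, Kif26a, Kif27 and Kif2b) lay between -0.06 and 0.12. Kif17 and Kif2a were not analysed here.

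The mitotic kinesins are known mainly from the spindle of dividing cells. At day 7 those chosen by their printed name lay between Kif20a at -0.06 ± 0.08 and Kif23 at 0.02 ± 0.10. At day 21 the same genes lay between Kif20a at -0.03 ± 0.04 and Kif22 at 0.12 ± 0.09 (SD, n = 5 each). Mitotic kinesins printed under other names reached lower. Kif15 averaged -0.35 ± 0.18 at day 7 and -0.12 ± 0.26 at day 21. Kif20b averaged -0.006 ± 0.33 at day 7 and -0.21 ± 0.15 at day 21. Kif18a, at 0.006 and 0.004, and Kif18b, at 0.02 and -0.02, lay near 0 on these days. Kif22 and Kif4a were above 0 in all 5 day 21 animals, with unadjusted p of 0.091 and 0.070 in limma. Kif11, the spindle motor, was well above background on only 2 of 10 arrays of sprouting neurons at day 7. Kif2b was not well above background on any of 10 arrays of sprouting neurons at day 21, so its ratio there has no measured sprouting level behind it.

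At day 21 the 38 motor genes again lay around 0 as a group. The median ratio of the 38 was 0.0066, against -0.0014 for all genes, and 21 lay above 0, against 49% of all genes. At an unadjusted p under 0.05, 3 motor genes were past the mark, against 5.86% of all genes. Of these 3, 1 was higher and 2 were lower in sprouting neurons, against 3.47% and 2.39% of all genes. Without day 21 replicate 2 the count was 6, against 3.36% of all genes. No motor gene and no other gene passed the adjusted threshold (0% of all genes), and the smallest adjusted p of a motor gene was 0.84.

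Kif9 had the smallest p at day 21 and was lower in sprouting neurons. It is known in the mouse as a motor of motile cilia and the sperm tail. Its ratios were -0.29, -0.17, -0.24, 0.05 and -0.18, a mean of -0.17 ± 0.13, with an unadjusted p of 0.0098. Replicate 4, the animal whose arrays ran against each other, was the only one above 0, and without it the mean was -0.22. A second, dimmer Kif9 probe gave values between -0.11 and 0.06 at day 21. Dync1li1 was the gene higher at an unadjusted p under 0.05, with 0.19, 0.21, 0.54, -0.05 and 0.13, a mean of 0.20 ± 0.21 and a p of 0.018. Without replicate 4 its mean was 0.27. Kif21b was lower by a small amount, -0.08 ± 0.07, with 4 of 5 animals below 0 and a p of 0.032, but without replicate 4 the p was 0.10, and with median centring in place of loess the mean was 0.01.

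Kif1a and Kif5c lay above 0 in all 5 day 21 animals, by less than at day 7. Kif1a gave 0.38, 0.10, 0.86, 0.03 and 0.20, a mean of 0.31 ± 0.33 and an unadjusted p of 0.050. Its second probe had 3 of 5 animals above 0. Kif5c gave 0.05, 0.23, 0.15, 0.01 and 0.22, a mean of 0.13 ± 0.10 and a p of 0.23. With the scan day of the arrays as a block, the day 21 mean was -0.05 for Kif5c and 0.11 for Kif1a. Without replicate 4 the means were 0.16 for Kif5c and 0.38 for Kif1a. When the sign of either of that animal's arrays was turned, the day 21 means ran between 0.29 and 0.32 for Kif1a, 0.13 and 0.14 for Kif5c, 0.19 and 0.24 for Dync1li1, and -0.19 and -0.17 for Kif9. Of the 38 motor genes, 4 had 1 sign in all 5 day 21 animals, all of them higher (Kif1a, Kif5c, Kif22 and Kif4a), where 8.37% of all genes had 1 sign. With the first array of replicate 4 turned, Kif1a was no longer among them, and with its dye-swapped array turned Kif5c, Kif22 and Kif4a were not. In the other 4 animals 7 motor genes had 1 sign, where 14.9% of all genes did. The lowest means at day 21 were those of Kif9, Kif3c at -0.09 ± 0.18 and Kif21b, and the highest after Kif1a and Dync1li1 was that of Kif5c.

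The other transport motors lay within their spread at day 21. Kif5a averaged 0.09 ± 0.23 and Kif1b 0.12 ± 0.22, each with 3 of 5 animals above 0. Kif3b averaged 0.11 ± 0.17, Kif3a 0.04 ± 0.27, Kif21a 0.03 ± 0.27 and Klc2 0.06 ± 0.07. Kif5b averaged -0.06 ± 0.12, with its highest animal at 0.06. In dynein, Dync1h1 averaged -0.02 ± 0.06, Dync1i1 -0.01 ± 0.19, Dync1i2 -0.05 ± 0.33 and Dync1li2 0.01 ± 0.06. Dynll1 averaged -0.05 ± 0.21 and Dynlrb1 0.02 ± 0.11. Dctn1 averaged -0.06 ± 0.24 and Dctn2 -0.02 ± 0.07 (SD, n = 5 each). None of these had an unadjusted p under 0.05.

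Over the 10 animals of both days, 21 of 38 motor genes lay above 0, as did 46.9% of all genes, and 5 motor genes had an unadjusted p under 0.05, against 11% of all genes. Of these, 4 were higher and 1 lower in sprouting neurons, against 5.62% and 5.42% of all genes. Dync1li1 averaged 0.21 (standard error 0.05, 95% interval 0.09 to 0.32), with an unadjusted p of 0.0022. Kif1a averaged 0.39 (standard error 0.10, 95% interval 0.16 to 0.61), with a p of 0.0030, and Kif5c 0.27 (standard error 0.07, 95% interval 0.10 to 0.43), with a p of 0.0047. Kif1b was higher by 0.15 with a p of 0.029 and Kif9 lower at -0.12 with a p of 0.0090. All 5 had an adjusted p of 0.39 or more in limma, and the adjusted threshold was passed by 0% of all genes. Kif1a, Kif5c and Dync1li1 were higher in 9 of 10 animals each, as were 2.22% of all genes. These counts include day 21 replicate 4, whose direction is not settled. There Kif1a lay at 0.03, Kif5c at 0.01 and Dync1li1 at -0.05. Each of these 3 signs changed when 1 of that animal's arrays was turned. Without day 21 replicate 4 the means were 0.42 for Kif1a, 0.28 for Kif5c, 0.24 for Dync1li1 and -0.15 for Kif9. With the mean of a gene's probes in place of the brightest, Kif1a averaged 0.17 and Kif1b 0.06.

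**Figure D3:**
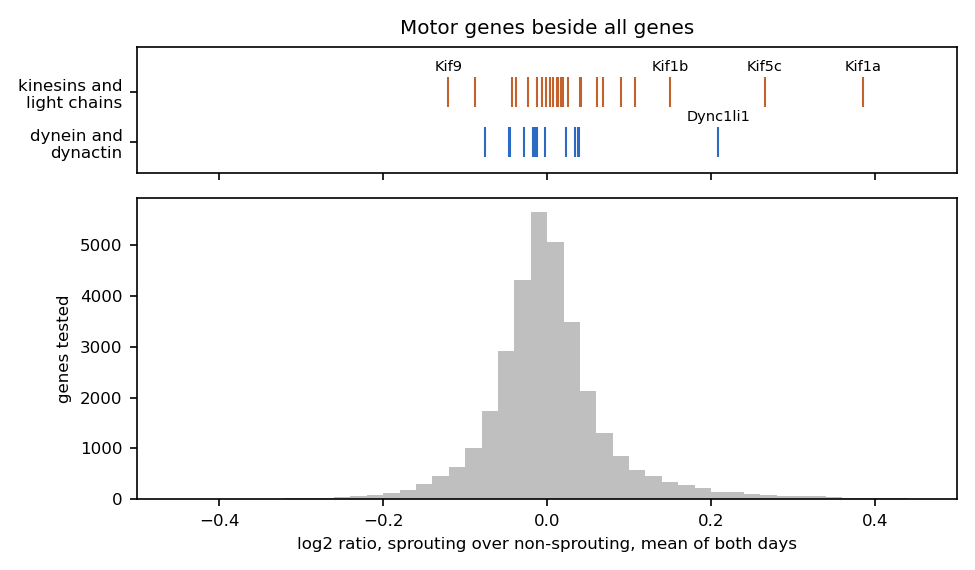
Mean log2 ratio of sprouting over non-sprouting neurons over both days for each motor gene (ticks, kinesins above dynein and dynactin) and, below, the number of all 33093 genes tested in bins of 0.02. Most ticks lie within the bulk of all genes; Kif1a at 0.39, Kif5c at 0.27 and Dync1li1 at 0.21 lie in its right tail and Kif9 at -0.12 in its left.

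A fit over the 20 single arrays, in which a random effect joined the arrays of an animal and the dye had its own term, made more calls than the fit over animals. It called 2 motor genes at an adjusted p under 0.05 at day 7, Kif5c with an adjusted p of 0.016 and Kif1a with 0.031. Over both days it called 3, Dync1li1 with 0.021, Kif1a with 0.014 and Kif5c with 0.021. Of all genes it called 1.22% at day 7 and 1.55% over both days. That fit takes 1 correlation of 0.58 between the arrays of an animal for every gene. Where the arrays of a gene agree more closely than that, its p comes out too small. For Kif1a at day 7 the array pairs were -0.12 and -0.23, 0.52 and 0.52, 0.66 and 0.42, 0.60 and 0.63, and 0.78 and 0.81. The 2 arrays of an animal are repeats, so these calls add no evidence beyond the fit over animals. In the fit over animals no motor gene passed the adjusted threshold. No other alternative called a motor gene.

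None of the 38 motor genes had an unadjusted p under 0.05 for the ratio at day 21 minus the ratio at day 7, where 4.08% of all genes did. No gene passed the adjusted threshold (0%). The count of motor genes was 4 without day 7 replicate 4 and 2 without day 21 replicate 3, against 4.33% and 3.51% of all genes. It was 0 or 1 without any other single animal, against 3.59% to 5.98% of all genes. The smallest unadjusted p was that of Kif2b, a dim probe, at 0.09 with a p of 0.067 in limma. Kif4a, at 0.10 with a p of 0.089, came next. Kif21b was at -0.08 and Kif22 at 0.16, each with a p of 0.11, and Kif11 at 0.06 with a p of 0.19. The largest difference was that of Kif5c, at -0.27 (95% interval -0.60 to 0.06, unadjusted p 0.10 in limma). The arrays of day 7 replicate 3 were scanned on different days. Within the 2 scan days that held other animals of both days, the difference for Kif5c was -0.59 and -0.50. Each rested on 1 day 7 animal, replicate 5 and replicate 4, the 2 with the highest Kif5c ratios of day 7. Day 7 replicates 1 and 2 had scan days of their own, so a blocked difference does not draw on them. With scan day as a block, and day 7 replicate 3 placed by its first array, the Kif5c difference was -0.45. Its unadjusted p was 0.0011 and its adjusted p 0.82, where 5.5% of all genes had an unadjusted p under 0.05. With day 7 replicate 3 left out of the blocked fit it was -0.56, with an unadjusted p of 0.00030 and an adjusted p of 0.13. There 10.1% of all genes had an unadjusted p under 0.05. Dync1li1 differed by -0.01 (95% interval -0.24 to 0.22), an interval that still holds differences as large as its own ratio.

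Levels of the motor genes in the same cell type were then set between the cohorts, day 21 over day 7. No motor gene passed the adjusted threshold in either cell type, nor did any other gene (0% of all genes). In sprouting neurons 2 of 38 had an unadjusted p under 0.05, against 8.85% of all genes, and both were lower at day 21, against 6.34% of all genes lower. In non-sprouting neurons 3 did, against 9% of all genes, of which 1 was higher and 2 were lower, against 2.48% and 6.52% of all genes. Without 1 animal in turn the count was 1 to 5 in sprouting neurons. It was 5 without day 7 replicate 5, against 17.9% of all genes. It was 1 without day 7 replicate 1, day 21 replicate 1 or day 21 replicate 2, against 5.92%, 6.77% and 7.8%. In non-sprouting neurons the count was 0 to 5, with 5 without day 7 replicate 5, against 19.1% of all genes. It was 1 without day 7 replicate 2 or 3, against 5.89% and 6.36%. It was 0 without day 7 replicate 1, day 21 replicate 2 or day 21 replicate 5, against 5.8%, 9.18% and 6.61%.

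Kif9 was lower at day 21 in both cell types. Its level in sprouting neurons was 8.08, 8.16, 8.31, 8.22 and 7.79 at day 21, against 8.45, 8.63, 8.50, 8.41 and 8.46 at day 7, and the cohorts did not overlap. Levels that do not overlap between the cohorts were found in 1.46% of all genes in sprouting neurons. The difference was -0.38 in sprouting neurons (unadjusted p 0.0074, adjusted p 0.48) and -0.28 in non-sprouting neurons (unadjusted p 0.038), where the cohorts overlapped. Within the 2 scan days with both cohorts it was -0.23 and -0.63 in sprouting neurons, and 0.02 and -0.69 in non-sprouting neurons. Each of these values rested on 1 day 7 animal.

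Kif6, a kinesin needed in the mouse for the cilia of ependymal cells, was also lower at day 21. Its level in non-sprouting neurons was 6.61, 6.64, 6.54, 6.65 and 6.55 at day 21, against 6.91, 6.95, 6.80, 6.73 and 6.69 at day 7, again without overlap, as in 1.45% of all genes. The difference was -0.22 in non-sprouting neurons (unadjusted p 0.036, adjusted p 0.55) and -0.31 in sprouting neurons (unadjusted p 0.038, adjusted p 0.56), where 1 day 7 animal stood high at 7.30. Both genes are dim or of middling level, and Kif6 was well above background on 9 of 10 arrays of sprouting neurons on each day.

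Kif1a had the largest positive difference in level in both cell types. In non-sprouting neurons its level was 8.91, 9.91, 9.04, 9.83 and 10.20 at day 21, against 8.06, 9.60, 8.81, 8.86 and 8.69 at day 7. The difference was 0.77 (unadjusted p 0.032, adjusted p 0.54). In sprouting neurons the level was 9.28, 10.002, 9.90, 9.85 and 10.40 at day 21, against 7.88, 10.12, 9.35, 9.47 and 9.49 at day 7, a difference of 0.62 with an unadjusted p of 0.11. The cohorts overlapped in both cell types. These Kif1a levels came from the 1 probe used, whose day 7 ratios disagreed with those of the second probe. With the mean of a gene's probes, 2 motor genes had an unadjusted p under 0.05 in non-sprouting neurons. There Kif6 had the smallest adjusted p of the motor genes. Without day 21 replicate 4 the differences were 0.71 for Kif1a in non-sprouting neurons (unadjusted p 0.068) and -0.26 for Kif9 in non-sprouting neurons (unadjusted p 0.077). In sprouting neurons they were -0.41 for Kif9 (unadjusted p 0.0093) and -0.35 for Kif6 (unadjusted p 0.034). Kif16b, a kinesin-3 that carries early endosomes, was higher at day 21 by 0.48 in sprouting neurons (unadjusted p 0.072) and by 0.47 in non-sprouting neurons (unadjusted p 0.074). With only the probes that passed a stricter filter, Kif16b was read from its other probe and the difference in sprouting neurons was -0.34. Kif22 had the largest lower value in non-sprouting neurons, -0.43, with an unadjusted p of 0.053. Without day 21 replicate 4 it was -0.51 with a p of 0.039, and Klc2 in sprouting neurons was 0.59 with a p of 0.026.

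**Figure D4:**
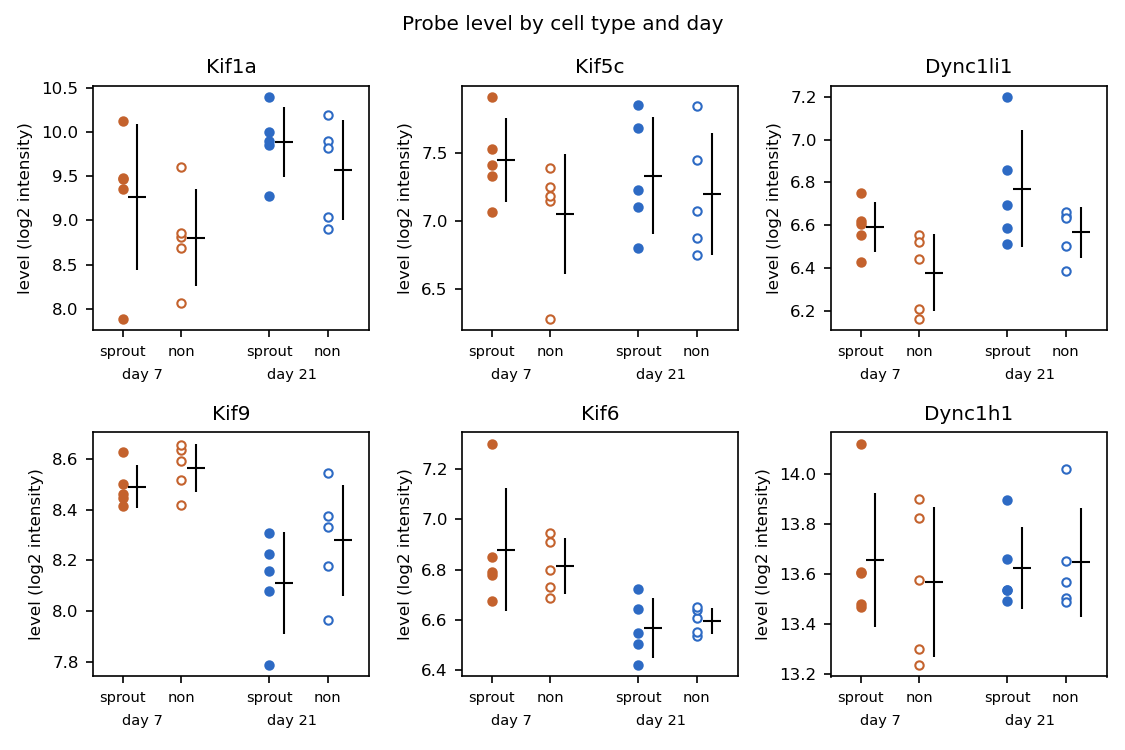
Level (log2 intensity of 1 probe) of 6 motor genes in sprouting (filled) and non-sprouting (open) neurons at day 7 and day 21; points are the 5 animals of each group and crosses the mean with SD. Each panel has its own axis that does not start at 0, and the Kif9 panel shows no overlap between day 21 and day 7 in sprouting neurons.

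Cell type markers moved between the cohorts as well. In sprouting neurons 7 of 9 oligodendrocyte markers had an unadjusted p under 0.05 and lay lower at day 21, and their summed intensity ran between 11918 and 49372 at day 21 and between 34533 and 73841 at day 7. Of 8 astrocyte markers 7 were below 0 there, 4 of them with an unadjusted p under 0.05. In non-sprouting neurons 7 of 9 oligodendrocyte and 7 of 8 astrocyte markers lay below 0. There 0 of either list had an unadjusted p under 0.05. The list medians were -0.41 and -0.20 in non-sprouting neurons, against -0.76 and -0.40 in sprouting neurons. Their part in the levels of Kif9, Kif6 and Kif1a was not tested.

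The proteins that work with the motors were measured from a fixed list of 42 genes, of which 40 could be tested. At day 7, 3 had an unadjusted p under 0.05 and were higher in sprouting neurons, and 2 (Hap1 and Ndel1) were lower, beside the 4.48% and 5% of all genes. Rab6a, the small GTPase of Golgi vesicles carried by kinesin-1 and dynein, gave 0.22, 0.17, 0.46, 0.31 and 0.36, a mean of 0.31 ± 0.12, with an unadjusted p of 0.00056 and an adjusted p of 0.32. Trak2, which fastens mitochondria to their motors, gave 0.43, 0.19, 0.02, 0.87 and 0.90, a mean of 0.48 ± 0.40 with an unadjusted p of 0.0060. Clstn1, which couples kinesin-1 light chains to membrane cargo, gave -0.06, 0.02, 0.66, 0.28 and 0.83, a mean of 0.35 ± 0.39 with an unadjusted p of 0.014. Trak2 was highest in replicates 4 and 5, where the oligodendrocyte markers were also highest, and Rab6a was highest in replicate 3. At day 21, Rab6a averaged 0.08 ± 0.17 and Trak2 0.13 ± 0.29. None of the 40 passed the adjusted threshold in any comparison.

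Of the 20 motor genes printed under other names, 18 could be tested. At an unadjusted p under 0.05 at day 7 none was higher and 2 were lower, beside 4.48% and 5% of all genes. Kif15, a spindle motor that also crosslinks microtubules in growing axons, was below 0 in all 5 day 7 animals at -0.42, -0.25, -0.11, -0.40 and -0.59. Its mean was -0.35 ± 0.18, with an unadjusted p of 0.0029 and an adjusted p of 0.41. At day 21 it averaged -0.12 ± 0.26, with 3 of 5 animals below 0. The other was Kif19, at -0.06 ± 0.02. Its ratio at day 21 minus day 7 was 0.09, with an unadjusted p of 0.039 and an adjusted p of 0.94 in limma. At day 21, 4 of the 18 lay above 0 and 14 below, against 49% of all genes above 0. Their median was -0.06. At an unadjusted p under 0.05 none was higher and 1 was lower. This was Klc4, a kinesin light chain, below 0 in all 5 animals at -0.09 ± 0.04, with a p of 0.021. The 18 genes were not chosen by the printed name, and they add no count to the 38.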

How the data were processed

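Laser-captured sprouting and non-sprouting neurons of 10 rats were measured on 20 Agilent 2-colour arrays, which number limits the precision. Per the file headers, the deposited intensity of each spot comes from Agilent Feature Extraction 9.1.3.1 and is not normalized. A deposited table of log2 ratios per array, normalized by the authors in a way not given in the sources used here, served as an alternative; it lacks 75 ratios, and 20 further columns of per-sample values in it were not used. Here, with R 4.3.3 and limma 3.58.1, background was corrected by normexp (offset 50) and each array was fitted by loess without weight on control spots (0) and without outlier spots. The sign of dye-swapped arrays was turned so that each ratio has sprouting neurons on top, and an animal's arrays were averaged. A probe was kept if, in some cell type and day, a share of 0.5 of the arrays had it well above background, with 3 animals per day. One fit over all genes gave a mean per day; p-values were adjusted by Benjamini-Hochberg. Levels used Aquantile. Named were the 6 motor genes (over time, 4) with the smallest p per comparison, the 3 highest and 3 lowest means per day, the extreme mitotic kinesins, a fixed set of transport motors and, chosen after their values were seen, Kif1c, Dctn3, Dctn4, Dctn6, Dync2h1, Klc3, the kinesins given by a range, and partners or motors under other names. Motor genes and lists were chosen with earlier results of these data known. Members were matched to current symbols by accession (26 probes), symbol (25) or synonym (2) through RefSeq tables. Replicate numbers are shared between separate cohorts; deviations of same-numbered animals correlated between -0.19 and 0.00, so they were not taken as pairs. The fit was tested on simulated data. Probes and proteins have no sequence here. Alternatives are listed in the closing section. An exact test over 5 animals cannot go below a two-sided p of 0.0625, so single values have no test beside the fit.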

Additional observations from a re-analysis of the deposited data

Results flagged for a closer look

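Of 76 sets of 5 ratios (38 motor genes on 2 days), 4 held an animal far from the others; chance marks about 1 set in 20. Kif1a at day 7 was -0.18 in replicate 1, against 0.52 to 0.79 in the others. Kif3a at day 21 was 0.50 in replicate 2, against -0.16 to 0.01 in the others. Kif13a, a kinesin-3 of endosomes and membrane cargo, was 0.28 at day 21 in replicate 5, against -0.06 to 0.02. Kif21b at day 21 was 0.043 in replicate 3, against -0.12 to -0.09. No cause was tested.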

How the results depend on the processing

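No alternative that kept the gene turned the sign of Kif1a, Kif5c, Dync1li1 or Kif9 at day 7 or over both days. The stricter brightness filter kept only 27 of the 38 motor genes. Dync1li1 was well above background on at most 9 of 10 arrays in any cell type and day, so its sign is not claimed under that filter. The count of motor genes called stayed at 0 under every alternative run for a comparison but the fit over 20 arrays, which called 2 at day 7 and 3 over both days (404 and 514 of all genes). Levels were not run with the deposited ratios, processed signals, median centring in place of loess, outlier spots kept, the fit over 20 arrays or turned arrays. The median of the motor genes at day 7 was -0.0093 with median centring in place of loess, 0.018 with the stricter brightness filter, 0.016 with the mean of all probes, and -0.0056 to 0.014 without 1 animal in turn. The median difference between the days was -0.042 from processed signals and 0.028 with median centring. With scan day as a block and the animal scanned on different days left out, chosen after seeing the data, these medians were -0.0054 and 0.030. Kif2b turned to 0.016 at day 7 with median centring, and its difference between the days to -0.31 from processed signals. Kif21b at day 21 turned to 0.013 with median centring. Kif16b over time in sprouting neurons turned to -0.34 with the stricter filter, which reads another probe. Other causes were not tested. With the replicate number as a block, 0 motor genes were called in any comparison, and 7.25%, 4.76%, 8.4% and 3.25% of all genes had an unadjusted p under 0.05 at day 7, day 21, both days and between the days. After seeing the data, each array of day 21 replicate 4 was also turned round in turn; 37 of 38 motor genes kept their day 21 sign with the first array turned and 34 with the dye-swapped one. With channels centred on their median, the motor genes' median level at day 21 over day 7 was -0.17 in sprouting and -0.13 in non-sprouting neurons. The dim probes (Kif11, Kif2b) limit what can be seen.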
